A study of Mus musculus with 18 samples.

Results

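The calcium/calmodulin-dependent protein kinases were followed across striatal arrays from mice with and without a mutation of Camk4, the gene for CaMKIV. The set was chosen by gene name and held 10 genes: Camk4, the upstream kinases Camkk1 and Camkk2, the CaMKI genes Camk1, Camk1g and Pnck, and the CaMKII genes Camk2a, Camk2b, Camk2d and Camk2g. Every probe set annotated to only 1 of these symbols was a member, which gave 16 of 22690 probe sets on the array for 9 of the 10 genes. The annotation used here paired no probe set with Camkk1, which was not analysed. Of the 16, 13 passed a filter on dim probe sets, which asked for 3 or more arrays over 4 on the log2 scale, and were tested among 12674 in all. The 9 genes each kept at least 1 probe set. The 3 left out were dim probe sets of genes with a brighter one.

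The 18 arrays, 1 per animal, came from littermates 10 to 20 weeks old that were killed 1 hour after an intraperitoneal injection. The sample records also give 5 days of handling for all of these animals. The groups were 6 mutant and 6 control mice given 25 mg/kg cocaine, and 3 mutant and 3 control mice given saline. The titles carry the groups, because the separate description lines name other ones, and they number the animals in an Arabic series (3 in each of the 4 groups) and a Roman series (cocaine only, 3 of each genotype). The tissue was the whole dissected striatum with the nucleus accumbens. The labels say only that an animal was mutant or control: they name no allele, no deleted exon and no cell type in which the gene was lost. It is therefore not known here whether a probe set lies inside the altered part of Camk4. In tissue RNA, fewer cells that express a gene and less RNA per cell cannot be told apart. Values below are log2 GCRMA expression values of 1 probe set, or differences between them. Probe sets differ in how strongly they bind, so values of different genes do not rank their amounts of RNA.

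Calcium that enters an active neuron binds calmodulin, and the complex switches on this family of serine/threonine kinases. CaMKK1 and CaMKK2 sit upstream and phosphorylate the activation loop of CaMKI and CaMKIV. CaMKIV is found largely in the nucleus, where it phosphorylates the transcription factor CREB, while the CaMKII proteins assemble into large holoenzymes that are abundant at synapses.

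Markers of striatal tissue were well measured. Of 10 spiny neuron markers 7 were measured, and their mean per array lay between 12.40 and 12.62 in mutant cocaine arrays, 12.31 and 12.69 in control cocaine arrays, 12.55 and 12.64 in mutant saline arrays and 12.48 and 12.63 in control saline arrays. Among them Penk had a mean of 13.9 and Ppp1r1b one of 13.4. Of the 8 markers of cortical and hippocampal glutamatergic neurons only Tbr1 passed the filter, with a mean of 3.64. Array medians lay between 4.98 and 5.19. Mutant cocaine replicate 5, of the Roman series, stood apart: its mean correlation with the other arrays was 0.966, against 0.976 to 0.990 for the other 17, and its actin 3' minus 5' difference, which grows as RNA shortens, was 3.59, against 1.57 to 2.55.

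Camk4 itself was lower in the mutants. In its brightest probe set (1426167_a_at) the Arabic-numbered mutant cocaine arrays read 7.23, 7.29 and 7.24 and the control ones 7.54, 7.62 and 7.52. In the Roman series the mutant cocaine arrays read 7.30, 6.85 and 7.69 and the control ones 7.76, 7.74 and 7.72. After saline the mutants read 7.29, 7.14 and 7.47 and the controls 7.72, 7.59 and 7.64. Every mutant array therefore lay below every control array of its treatment and series. Of the 12674 probe sets, 5 (0.0395%) had mutants below controls without overlap in all 3 of these comparisons, and 10 (0.0789%) had mutants above.

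**Figure D1:**
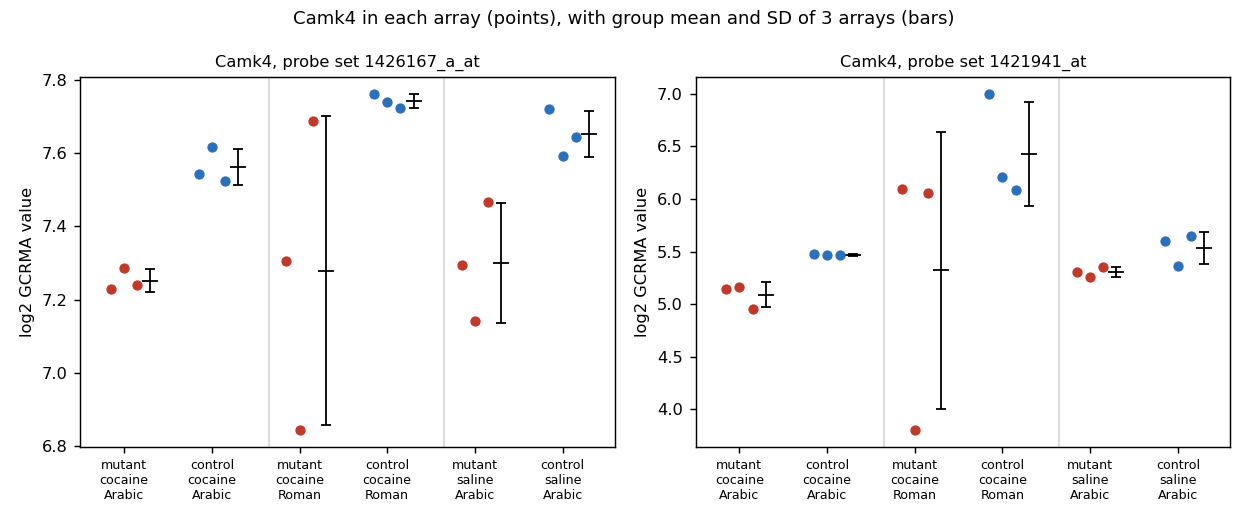
Log2 GCRMA values of the 2 measured Camk4 probe sets in each array, with mutant (red) left of control (blue) within each treatment and numbering series; black bars are the mean and SD of 3 arrays. In 1426167_a_at all mutant points lie below the control points beside them, and mutant cocaine replicate 5 is the lowest array in both panels.

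The difference was small. Averaged over treatments, mutants stood at -0.37 ± 0.09 (log2, SE; 95% interval -0.56 to -0.18) relative to controls, which is 0.775 of the control level. It was -0.39 ± 0.10 after cocaine and -0.35 ± 0.15 after saline. Relabelling the genotypes within each treatment and series, an exact permutation test, gave p = 0.00025 (two-sided, unadjusted, 8000 relabellings), the smallest these can give, and within the Arabic series alone p = 0.005 at a difference of -0.33, again the smallest possible. In the 3 against 3 Roman arrays the difference was -0.46, with an exact p of 0.1, below which that design cannot go. Taken singly, mutants lay below controls without overlap for 6.03% of all probe sets in the Arabic cocaine arrays, 7.15% in the Roman ones and 4.56% in the saline arrays. Adjusted over all 12674 probe sets in limma the averaged difference had a p of 0.611, with rank 14 by unadjusted p (8.5e-04), so it did not pass the threshold of 0.05.

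No other probe set passed there either: limma called 0 of 12674 (0%) for mutant against control averaged over treatments, as did an ordinary linear model, while 904 (7.13%) had an unadjusted p under 0.05. Without mutant cocaine replicate 5 the Camk4 difference was -0.32 ± 0.06, rank 3, with an adjusted p of 0.263. With the actin 3' minus 5' difference as a term it was -0.30 ± 0.06, rank 8. That actin measure averaged 2.33 ± 0.16 in mutant and 2.43 ± 0.19 in control Arabic cocaine arrays (SD, n = 3 each, as below). It averaged 2.30 ± 1.12 in mutant and 1.73 ± 0.17 in control Roman cocaine arrays, and 2.31 ± 0.09 in mutant and 2.08 ± 0.20 in control saline arrays. Its part in the Camk4 difference was measured only by that term.

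The other 2 Camk4 probe sets differed in how much they could show. In 1421941_at the Arabic mutant cocaine arrays read 5.15, 5.17 and 4.95 and the controls 5.48, 5.47 and 5.46, without overlap. After saline the mutants read 5.30, 5.26 and 5.36 and the controls 5.60, 5.36 and 5.65, where the nearest pair differed by less than 0.01. In the Roman series the mutants read 6.10, 3.80 and 6.06 and the controls 7.00, 6.21 and 6.09, and the groups overlapped. The averaged difference was -0.49 ± 0.27 (SE, adjusted p = 0.679), with exact permutation p = 0.0005 (two-sided, unadjusted). It was -0.30 ± 0.11 without mutant cocaine replicate 5. Roman minus Arabic was 0.60 ± 0.31 in this probe set and 0.10 ± 0.10 in 1426167_a_at, and neither passed (limma, adjusted p of 0.243 and 0.568). The third, 1452572_at, lay between 2.01 and 2.05 in all 18 arrays, and was not tested.

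Cocaine against saline did not pass for either Camk4 probe set within a genotype. By 1426167_a_at the means in rising order were 7.27 ± 0.27 in mutant cocaine arrays (SD, n = 6), 7.30 ± 0.16 in mutant saline arrays (n = 3), 7.65 ± 0.10 in control cocaine arrays (n = 6) and 7.65 ± 0.06 in control saline arrays (n = 3). The first and the last neighbouring pairs each differed by less than their SD. Cocaine minus saline was -0.09 ± 0.14 in mutants (SE, 95% interval -0.38 to 0.20) and -0.05 ± 0.14 in controls (-0.34 to 0.24), and their difference was -0.03 ± 0.18. In the Arabic arrays alone, the only series with saline animals, the mutant value was -0.05 ± 0.09. The Arabic control means were 7.56 after cocaine and 7.65 after saline, so there the cocaine difference was farther from 0 in controls than in mutants. The Arabic mutant means, 7.25 after cocaine and 7.30 after saline, lay below the control means under both treatments. In 1421941_at the Arabic mutant cocaine arrays given above lay below all mutant saline arrays, as for 12.2% of all probe sets. Its cocaine minus saline difference in mutants was -0.40 ± 0.41 over all arrays and -0.22 ± 0.11 in the Arabic arrays alone (limma, adjusted p of 0.766 and 0.442).

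The question for the rest of the family was whether other kinases shifted with the mutation. None of the 11 tested probe sets of the other 8 genes passed, in any of the 3 genotype contrasts or the interaction, where limma and an ordinary linear model called 0 members each, of 0% of all probe sets. The median of these 11 was 0.05 for mutant minus control, against 0.01 over all 12674 probe sets. Including Camk4, 5 of the 13 had an unadjusted p under 0.05, where 7.13% of all probe sets did. Besides Camk4 these were both probe sets of Camk2g, Pnck and 1 of Camk1, and all 4 stood higher in mutants with limma's adjusted p = 0.679. After cocaine alone 2 of 13 had an unadjusted p under 0.05, both of Camk4, against 11.6% of all probe sets. After saline alone 4 had one (Camk4 1426167_a_at, Camk1 1417605_s_at, Camk2g 1423942_a_at and Pnck), against 2.76%.

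**Figure D2:**
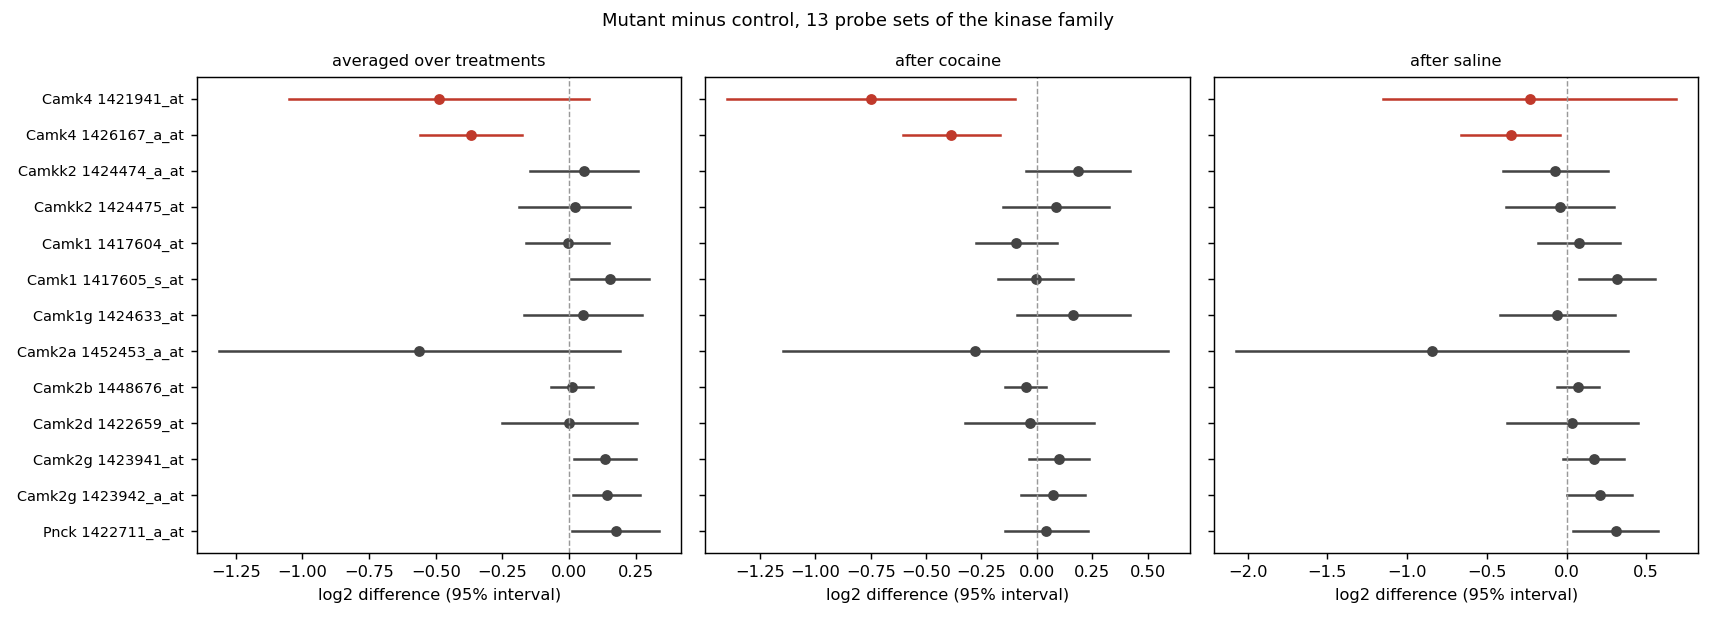
Mutant minus control log2 difference with its 95% interval for the 13 tested probe sets, averaged over treatments, after cocaine and after saline (x axes differ in range); Camk4 is in red. Camk4 1426167_a_at lies below 0 with its whole interval in all 3 panels, and the widest intervals belong to Camk2a.

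Of the kinases upstream, Camkk2 was measured by a pair of bright probe sets that moved together over the arrays (r = 0.68 over 18 arrays, and 0.97 without mutant cocaine replicate 5, where the points share hybridisation and processing). In 1424474_a_at the mutant cocaine arrays ran from 11.21 to 11.53 with a median of 11.32, and the control ones from 10.67 to 11.41 with a median of 11.21. After saline the mutants read 11.19, 11.05 and 11.23 and the controls 11.35, 11.43 and 10.88. The genotypes overlapped in every treatment and series. Mutant minus control was 0.06 ± 0.10 (SE; 95% interval -0.15 to 0.26) in this probe set and 0.02 ± 0.10 (-0.19 to 0.23) in 1424475_at. The low control cocaine array, replicate 4, was also the lowest of all 18 in 1424475_at, at 9.64. The third probe set, 1424476_at, stayed between 2.23 and 3.63 and was not tested.

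Among the CaMKI genes, which encode kinases activated by CaMKK, the probe sets of Camk1 disagreed. In 1417604_at mutant minus control was -0.01 ± 0.07 (SE; -0.16 to 0.15). In 1417605_s_at, a design whose suffix marks probes shared with transcripts of other genes, it was 0.15 ± 0.07 (0.01 to 0.30). That value came from the saline arrays: the mutants read 7.09, 6.99 and 7.30 and the controls 6.74, 6.85 and 6.85, without overlap, as for 7.19% of all probe sets. After cocaine the mutants ran from 6.56 to 7.08 and the controls from 6.55 to 7.21, with the same median of 6.93. The genotype by cocaine interaction was -0.32 ± 0.14 with an adjusted p of 0.992, and 2.68% of all probe sets had an unadjusted p under 0.05 as it did.

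Pnck, the gene of the neuronal CaMKI beta kinase, had the highest averaged genotype difference in the family, 0.18 ± 0.08 (SE; 0.01 to 0.34). After saline the mutants read 9.72, 9.90 and 9.57 and the controls 9.41, 9.24 and 9.61, and after cocaine the mutants ran from 9.24 to 9.93 with a median of 9.53 and the controls from 9.36 to 9.74 with a median of 9.50. The genotypes overlapped under both treatments. The difference was 0.31 ± 0.13 after saline and 0.04 ± 0.09 after cocaine, and the interaction, -0.27 ± 0.15, did not pass (adjusted p = 0.992). Camk1g, which encodes a membrane-anchored CaMKI, differed by 0.05 ± 0.10 (-0.17 to 0.27), and in the Roman cocaine arrays alone its mutants (8.05, 7.89 and 7.59) lay above the controls (7.45, 7.57 and 7.59), the nearest pair by less than 0.01, as 7.91% of all probe sets did.

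The CaMKII genes encode the subunits of the synaptic holoenzyme. Both Camk2g probe sets were higher in mutants by similar amounts, 0.14 ± 0.06 (SE; 0.02 to 0.25) in 1423941_at and 0.14 ± 0.06 (0.02 to 0.27) in 1423942_a_at, about 1.10-fold, with exact permutation p values of 0.0268 and 0.0415 (two-sided, unadjusted over the 16 probe sets so tested). The same permutation test gave 0.08875 for Pnck and 0.078 for Camk1 1417605_s_at, whose unadjusted p in limma was also under 0.05. In 1423942_a_at the Arabic mutant cocaine arrays (8.96, 8.95 and 9.08) lay above the controls (8.91, 8.79 and 8.78), which 6.08% of all probe sets did. In the saline arrays (mutants 9.05, 9.06 and 8.82, controls 8.85, 8.69 and 8.78) and the Roman arrays (mutants 8.71, 8.83 and 8.66, controls 8.57, 8.79 and 8.90) the genotypes overlapped. In the Roman arrays alone the difference of this probe set was -0.02 ± 0.12.

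**Figure D3:**
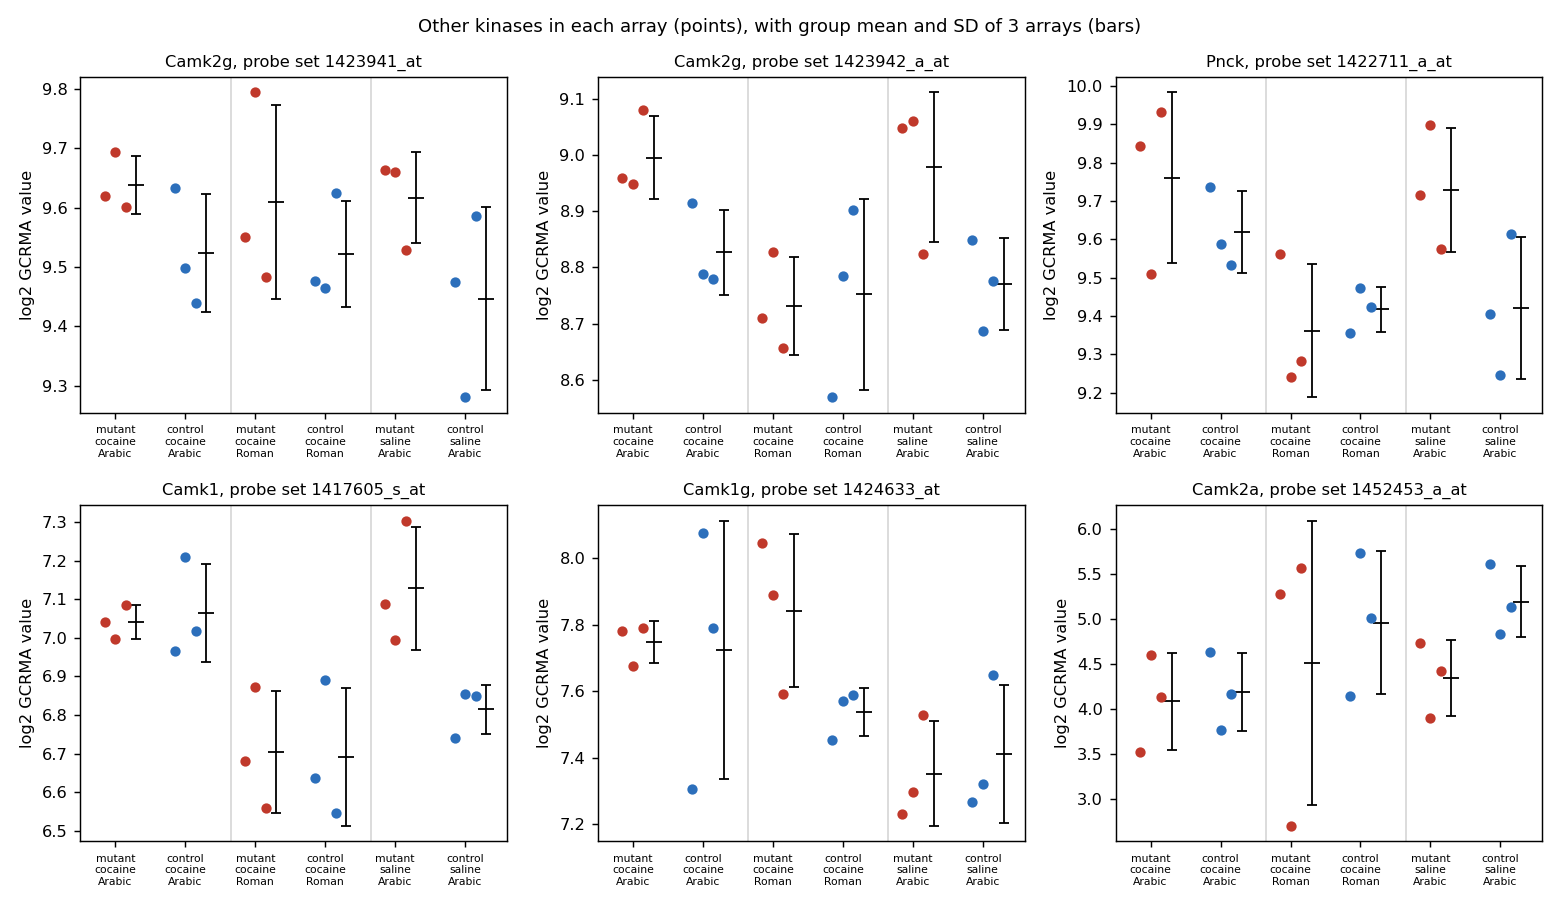
Log2 GCRMA values of 6 probe sets (both of Camk2g, and those of Pnck, Camk1 1417605_s_at, Camk1g and Camk2a) in each array, mutant (red) left of control (blue); black bars are the mean and SD of 3 arrays. The genotypes overlap in most of the comparisons, Pnck and Camk1 lie lower on average in the Roman cocaine arrays than in the Arabic ones.

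Camk2b had the narrowest interval: it lay between 12.18 and 12.58 in all arrays, and mutant minus control was 0.01 ± 0.04 (SE; -0.07 to 0.09). Camk2d by 1422659_at ran from 6.78 to 7.27 in mutant cocaine arrays and from 6.72 to 7.50 in control ones, and differed by 0.0016 ± 0.12 (-0.25 to 0.25). Its other probe set, 1427763_a_at, rose above 4 in 2 arrays and was not tested. The only Camk2a probe set was dim and scattered, from 2.70 to 5.73, and passed 4 in 14 arrays. After saline its mutants read 4.73, 3.89 and 4.42 and its controls 5.62, 4.84 and 5.13, without overlap, as for 4.56% of all probe sets. After cocaine the mutants ran from 2.70 to 5.57 and the controls from 3.77 to 5.73. The averaged difference was -0.56 ± 0.36 (-1.31 to 0.19), the widest interval in the family. Its lowest value belonged to mutant cocaine replicate 5, and without that array the difference was -0.35 ± 0.23.

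For cocaine against saline, 0 of the 13 members passed in limma (0 with an ordinary linear model, and 1 with an unadjusted p under 0.05), where 28 of 12674 probe sets (0.221%) did and 5.09% had an unadjusted p under 0.05. Without mutant cocaine replicate 5 the count over all probe sets was 362, and with array weights it was 103, with 0 members in either. In mutants alone 0 members passed against 0.0473% of all (1 unadjusted, Camk1g, against 6.95%), and in controls alone 0 against 0.11% (1 unadjusted, Camk1 1417605_s_at at 0.24 ± 0.11, against 2.6%). Averaged over genotypes the member with an unadjusted p under 0.05 was Camk1g. In the Arabic series its mutant cocaine arrays read 7.78, 7.68 and 7.79 and its control cocaine arrays 7.31, 8.08 and 7.79. Its saline arrays read 7.23, 7.30 and 7.53 in mutants and 7.27, 7.32 and 7.65 in controls. These mutant cocaine arrays lay above all mutant saline arrays, as for 7.42% of all probe sets, and both Camkk2 probe sets did so too. Camk2b and Camk4 1421941_at lay below without overlap there, as for 12.2% of all probe sets. In controls the treatments overlapped for Camk1g. Among the Arabic controls Camk1 1417605_s_at lay higher after cocaine and Camk2a lower, without overlap. The share of all probe sets was not computed for controls.

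The averaged cocaine difference of Camk1g was 0.35 ± 0.12 (SE; 0.10 to 0.61; adjusted p = 0.816), 0.47 ± 0.16 in mutants and 0.24 ± 0.16 in controls. The averaged value rests on the Arabic arrays, the only series with saline animals. The Roman cocaine arrays also enter the values within each genotype, through the shared series term. In the Arabic arrays alone the mutant value was 0.40 ± 0.17. The Arabic control means were 7.72 after cocaine and 7.41 after saline. Without mutant cocaine replicate 5 the averaged value was the same, with limma's adjusted p at 0.149. With array weights it was 0.37 ± 0.10, with an adjusted p of 0.0958. Camk2a differed by -0.63 ± 0.41 (-1.50 to 0.24) and the other genes by -0.14 to 0.14. In the Arabic arrays alone the Camk2a difference was -0.63 ± 0.22 and that of Camk1g 0.35 ± 0.12 (limma, adjusted p of 0.181 and 0.161).

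Between the numbering series, Roman minus Arabic, 1 of 13 members passed in limma, where 781 probe sets (6.16%) did, 2.54% of all higher and 3.62% lower, and 5 had an unadjusted p under 0.05, as did 24.4% of all. Camk1 fell in the Roman series by 0.35 on the log2 scale in 1417605_s_at (SE 0.08, adjusted p = 0.0204). Pnck stood at -0.30 ± 0.09 and Camk1 1417604_at at -0.28 ± 0.09 without passing (adjusted p of 0.0558 and 0.0644), followed by Camkk2 1424475_at at -0.29 ± 0.11 and Camk2g 1423942_a_at at -0.17 ± 0.07. What the 2 series stand for is not stated in the labels.

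**Figure D4:**
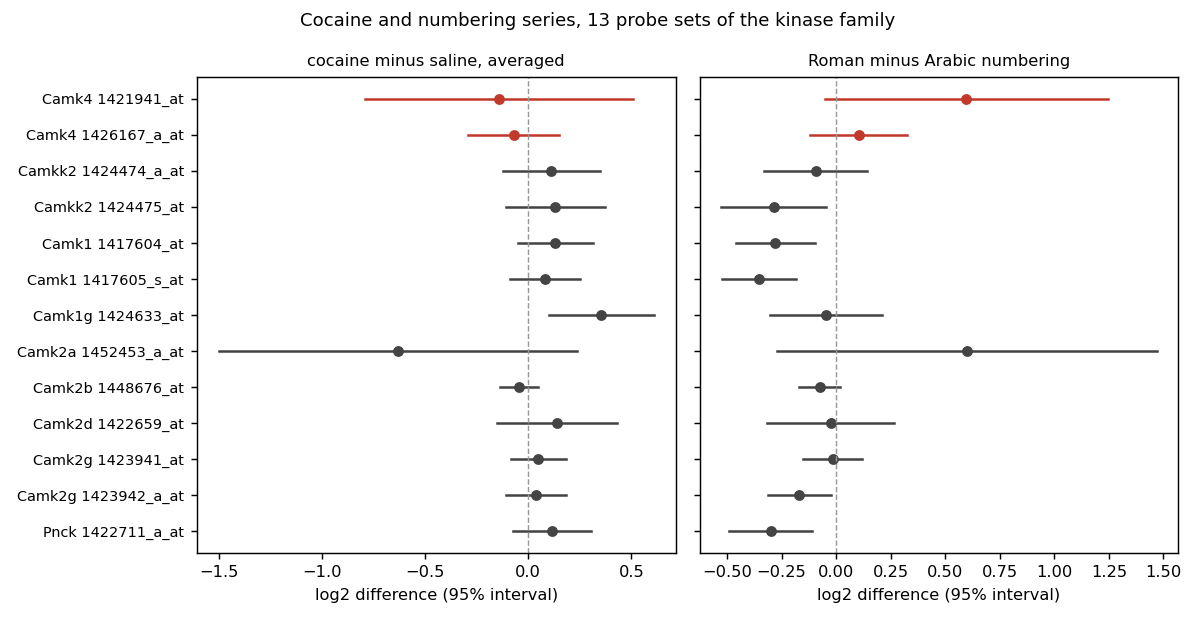
Cocaine minus saline averaged over genotypes (left) and Roman minus Arabic numbering series (right) for the 13 tested probe sets, as log2 differences with 95% intervals. Camk1g lies above 0 with its whole interval on the left, and Camk1, Pnck, Camkk2 1424475_at and Camk2g 1423942_a_at lie below 0 on the right.

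Promoter sequences of 6 member genes were at hand from RefSeq (GRCm38.p6), each of 300 bases from 250 before to 50 after the start of transcription. These genes were Camk1, Camk1g, Camk2b, Camk2d, Camkk1 and Camkk2. None was at hand for Camk4, Camk2a, Camk2g or Pnck. The 6 sequences were searched on both strands for the cAMP response element that CREB binds, as the full TGACGTCA and the core TGACG, which lies within it. The full motif was in 0 of the 6, and in 1.79% of 32851 promoters, and the core in 2 (Camk1 and Camkk1), and in 20.8% of all. A pair is shown, that of Camk1, the member that differed between numbering series, with its core in capitals, and that of Camk1g, the member with the largest positive cocaine difference, which holds neither motif. The first lies at chr6:113343873-113344172 and the second at chr1:193370233-193370532, both on the minus strand.
Camk1: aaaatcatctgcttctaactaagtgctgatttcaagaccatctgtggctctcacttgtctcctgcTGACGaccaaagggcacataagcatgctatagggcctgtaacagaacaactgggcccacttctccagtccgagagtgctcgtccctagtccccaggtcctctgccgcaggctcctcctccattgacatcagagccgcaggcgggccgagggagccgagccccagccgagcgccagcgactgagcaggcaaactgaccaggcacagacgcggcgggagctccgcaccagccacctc
Camk1g: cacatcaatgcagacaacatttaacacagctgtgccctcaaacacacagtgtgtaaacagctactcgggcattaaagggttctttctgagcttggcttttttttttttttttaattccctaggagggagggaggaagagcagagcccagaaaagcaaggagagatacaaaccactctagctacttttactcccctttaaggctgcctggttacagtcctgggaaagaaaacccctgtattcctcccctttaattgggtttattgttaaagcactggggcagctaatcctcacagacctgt

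Around the family, 30 of 49 listed calmodulin pathway genes were measured, each by its brightest probe set, and 0 passed for genotype (3 had an unadjusted p under 0.05) or for cocaine (1 did) in limma, and 0 in an ordinary linear model. Their medians were 0.02 and -0.03. By role, 0 of 5 calmodulin-binding regulators, 0 of 4 CaMKII partners, 0 of 9 related kinases, 0 of 5 phosphatases and 0 of 7 nuclear targets passed in either direction.

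The farthest from 0 for genotype were Crem, a CREB-family factor, at -0.32 ± 0.11 (SE, adjusted p = 0.679) and Ppp3cb, a catalytic subunit of the calmodulin-activated phosphatase calcineurin, at -0.23 ± 0.21. For cocaine they were Ppp3cb at -0.35 ± 0.25 and the synaptic scaffold gene Dlg4 at 0.16 ± 0.22. Ppp3cb passed for cocaine without mutant cocaine replicate 5, at an unchanged -0.35 with an SE of 0.07 and an adjusted p of 0.0178. Rora, a nuclear receptor, was the 1 pathway gene past the threshold between series, at -0.29 (limma, adjusted p = 0.0257), and also stands in the thalamic marker list.

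Of the 5 measured genes on each side of Camk4 along its chromosome, in RefSeq order, 0 of 10 passed for genotype in limma or an ordinary linear model, 1 had an unadjusted p under 0.05, and their median was 0.03. On one side Wdr33, Lims2, Ercc3, Bin1 and Wdr36 lay between 0.01 and 0.13, and on the other Stard4, Nrep, Apc, Srp19 and Reep5 between -0.18 and 0.03. Nrep, the gene next but one, was farthest from 0 at -0.18 ± 0.06 (SE, adjusted p = 0.679).

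The probe sets most like Camk4 1426167_a_at across the 18 arrays were Eif1ax (r = 0.88), Sgms1 (0.87), Ythdf3 (0.85), 4933434E20Rik (0.85) and Orc4 (0.85) on log2 values. Without mutant cocaine replicate 5 these were 0.83, 0.79, 0.76, 0.82 and 0.75 in the same order. On residuals, after the group and series terms, they were Ndufa4, Strn3, Sorcs1, Adcy3 and Tab2, at 0.88 to 0.90, and at 0.73 to 0.83 without that array. Within the family the residuals of Camk4 1426167_a_at correlated most with those of Camk4 1421941_at (0.80, and 0.50 without mutant cocaine replicate 5) and Camk2a (0.74 and 0.48). The points share their hybridisation and GCRMA processing.

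None of the 26 measured markers of other cells passed between genotypes in limma, and 2 had an unadjusted p under 0.05. None of the 7 spiny neuron markers passed either, and 2 had one, Rgs9 at 0.13 ± 0.04 and Bcl11b at 0.11 ± 0.05 (SE, adjusted p = 0.679). Mbp and Mobp of oligodendrocytes were at 0.02 and 0.05, Gja1 and Slc1a3 of astrocytes at -0.06 and -0.0023, Ctss and Csf1r of microglia at -0.0059 and 0.02, Slco1a4 and Cldn5 of endothelium at 0.22 and 0.04, and Rora and Prkcd of the thalamic list at 0.08 and 0.03. Ttr, the 1 measured choroid plexus marker of 3, ran from 2.26 to 5.29 in mutant cocaine arrays, 2.32 to 4.18 in control cocaine arrays, 3.61 to 4.12 in mutant saline arrays and 2.28 to 3.89 in control saline arrays, with a difference of 0.77. The mean of 4 endothelial genes per array ran from 7.19 to 7.74 in mutant saline arrays and from 7.19 to 7.26 in control saline arrays. The part of these cells in the Camk4 values was not tested.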

How the data were processed

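RNA of 18 striata was hybridised as biotin-labelled cRNA to Affymetrix arrays, 1 per animal. The deposited log2 values were made by the authors with GCRMA in R 2.4.1, per the submitters' processing notes, with options not given in the sources used here. GCRMA equalises the arrays, which hides changes in total signal, and compresses dim probe sets. The number of arrays limits precision. Probe sets with log2 above 4 in at least 3 arrays were kept, 64 Affymetrix control probe sets were left out, and 12674 remained, 11749 with 1 symbol, 406 with several and 519 with none. Symbols came from GEO's platform annotation, updated through RefSeq gene IDs. In limma 3.58.1 (R 4.3.3), a linear model took the 4 groups and the numbering series (intensity trend, moderated two-sided tests, Benjamini-Hochberg over all probe sets, threshold 0.05, 13 residual degrees of freedom), and tested on simulated data. Single probe sets were also tested by exact permutation of genotype within treatment and series. All member genes were named, with the pathway genes farthest from 0, the nearest chromosome neighbours, the closest profiles and the 2 brightest markers of each list. The members and lists were chosen with earlier results of these data known. The titles share replicate numbers between groups; residuals of same-numbered arrays correlated between -0.23 and 0.31 over 21 pairs, 7 of them above 0.1, so the numbers were not taken to pair the animals.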

Additional observations from a re-analysis of the deposited data

Results flagged for a closer look

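In 32 groups of 6 arrays (16 probe sets in each cocaine group), 2 arrays lay far from the others of their group by Dixon's criterion, which chance alone meets in about 1 group in 20. Control cocaine replicate 4 read 10.67 in Camkk2 1424474_a_at, against 11.16 to 11.41 in the other 5 arrays. Mutant cocaine replicate 5, the array with the highest actin 3' minus 5' difference, read 2.38 in Camkk2 1424476_at, against 2.66 to 2.83, all near the floor of the values.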

How the results depend on the processing

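Recomputed under 33 alternatives, the count of member probe sets past the threshold was 0 in all 7 contrasts wherever it could be computed, and also with the threshold alone moved to an adjusted p under 0.1, and the Camk4 difference stayed below 0, from -0.46 to -0.29, with adjusted p between 0.105 and 0.851. With a replicate block it was -0.37 ± 0.08 (adjusted p = 0.585), and the block changed no other call. The pathway count for cocaine became 1 (Ppp3cb) in the Arabic arrays alone and ran from 0 to 1 with each array left out. No value past the threshold turned direction. Among values that did not pass, the genotype difference turned in the Arabic arrays alone for Camk1 1417604_at (0.057), Camk1g (-0.017), Camk2d (-0.073) and Camkk2 (-0.030 in 1424474_a_at and -0.018 in 1424475_at), in the Roman arrays alone for Camk2b (-0.065), Camk2g 1423942_a_at (-0.020) and Pnck (-0.056), with array weights for Camk1 1417604_at (0.0047) and Camkk2 (-0.011 and -0.0059), with median centring for Camk1 1417604_at (0.032), with the actin term for Camk2d (-0.024), and in an additive model for Camk2b (-0.0096) and Camk2d (-0.0099). Without the series term the cocaine difference turned for Camk1 (-0.0077 in 1417604_at and -0.096 in 1417605_s_at), Camk2g 1423942_a_at (-0.048), Camk4 1421941_at (0.16), Camkk2 1424475_at (-0.012) and Pnck (-0.036), and with the actin term for Camk4 1421941_at (0.036). With each array left out, the genotype difference ran from -0.042 to 0.029 for Camk1 1417604_at, -0.0041 to 0.029 for Camk2b, -0.042 to 0.076 for Camk2d, and -0.027 to 0.11 and -0.066 to 0.071 for Camkk2, and the cocaine difference from -0.0013 to 0.058 for Camk2g 1423942_a_at. The cause was not tested. Each value that turned direction was smaller than its own SE, and the dim Camk2a probe set limits what can be said of that gene.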

Other observations

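Of the 5 probe sets that lay lower in mutants without overlap in each treatment and series, 4 carried a gene symbol. Beside Camk4 they were Spg21 (-0.36 ± 0.07, log2, SE), Oaz2, an inhibitor of polyamine synthesis (-0.16 ± 0.04), and Mdh1, the cytosolic malate dehydrogenase (-0.04 ± 0.02). The 10 that lay higher included Cacna1h, a T-type calcium channel subunit (0.14 ± 0.05), and Gnai2, an inhibitory G protein subunit (0.24 ± 0.11). None passed in limma (adjusted p of 0.399 to 0.679), and these genes were picked out after their values were seen.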
